A study of Mus musculus with 300 samples.

Results

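Lck, Cd3e, Cd3g, Cd3d, Lat and Skap1 encode parts of the CD3 complex and the first signalling steps below the T-cell receptor, and their rows were followed through every cell of the expression matrix analysed here. The 6 genes were chosen by name out of 13737 features, with earlier results of these data known. The cells were single cells labelled as early thymic progenitors (ETPs), the first cells of the thymus on the way to T cells. Some of them carried markers of other cell types, as described below. All were taken from the embryonic thymus at E15.5. The mice were of a single strain, labelled 5x polychromILC, which carries fluorescent reporters at loci that include Id2, Gata3, Rora and Bcl11b. No treatment, mutant or second group is named, and all cells carry the same strain label. The cells come from 4 labelled mouse ids, with 67 cells from 1A, 69 cells from 1B, 64 cells from 2A and 61 cells from 2B. Values given by mouse follow that order. The labels do not say whether a mouse id stands for 1 embryo, nor how the sort was gated.

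The CD3 gamma, delta and epsilon chains (Cd3g, Cd3d, Cd3e) pair with one another and carry, with the zeta chain (Cd247), the signal of the T-cell receptor into the cell. Lck is the Src-family kinase that phosphorylates these chains, and Zap70 then phosphorylates Lat, the membrane adaptor on which phospholipase C-gamma and other enzymes assemble. Skap1 is a cytosolic adaptor, bound to the adaptor Fyb, that links receptor signals to integrin adhesion. Progenitors without a rearranged receptor begin to transcribe several of these genes, and natural killer (NK) cells and innate lymphoid cells (ILCs) transcribe some of them without carrying the receptor; fetal NK cells are known for CD3 chain transcripts.

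The 3 CD3 chain genes lie side by side on chromosome 9 of GRCm38 (GENCODE vM21): Cd3g at chr9:44969572-44980431 on the minus strand, Cd3d at chr9:44981786-44987339 on the plus strand and Cd3e at chr9:44998740-45009627 on the minus strand. The starts of Cd3g and Cd3d face away from each other and are 1355 bases apart, whereas those of Cd3d and Cd3e are 27841 bases apart. Lck lies at chr4:129548344-129573641 (minus), Lat at chr7:126363824-126369570 (minus) and Skap1 at chr11:96464593-96759130 (plus). All 6 are protein-coding genes. RefSeq promoter entries (GRCm38.p6) matched 5 of the 6 members, without Skap1. The 250 bases before each CD3 start in RefSeq are shown because the 3 neighbours differed in detection in the same cells. The RefSeq start of Cd3e lies inside the GENCODE gene, so 16 bases of its window fall within the coordinates given above. The stretches run 5′ to 3′ on the strand of the gene, and capitals mark the E-box CANNTG, the motif of the E proteins that the product of Id2 holds back.
Cd3g (chr9:44980432-44980681, minus): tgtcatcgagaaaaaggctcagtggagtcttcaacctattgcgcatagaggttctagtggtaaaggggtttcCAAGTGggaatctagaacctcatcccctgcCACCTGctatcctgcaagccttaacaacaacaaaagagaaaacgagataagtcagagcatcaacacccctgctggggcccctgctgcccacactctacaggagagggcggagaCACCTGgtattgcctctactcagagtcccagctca
Cd3d (chr9:44981536-44981785, plus): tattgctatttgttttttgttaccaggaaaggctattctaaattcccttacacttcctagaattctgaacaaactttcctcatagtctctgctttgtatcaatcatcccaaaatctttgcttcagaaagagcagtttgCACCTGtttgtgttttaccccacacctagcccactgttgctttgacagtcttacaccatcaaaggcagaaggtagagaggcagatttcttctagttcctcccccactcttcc
Cd3e (chr9:45009612-45009861, minus): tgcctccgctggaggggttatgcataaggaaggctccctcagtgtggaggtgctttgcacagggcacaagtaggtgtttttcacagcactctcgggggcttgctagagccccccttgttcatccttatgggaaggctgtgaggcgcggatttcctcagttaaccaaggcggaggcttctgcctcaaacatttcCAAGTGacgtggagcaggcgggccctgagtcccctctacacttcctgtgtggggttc
The Cd3g stretch held 3 E-boxes and those of Cd3d and Cd3e 1 each. CANNTG reads the same on both strands, and 66.2% of 32851 mouse promoter stretches of this length held at least 1 (median 1). The Ets core GGAA, searched on both strands, had 2 matches before Cd3g, 6 before Cd3d and 5 before Cd3e, and was held by 93.5% of all stretches. The Runx core TGTGGT, searched on both strands, had 0 matches in the 3 stretches and was held by 14.1% of all. These matches describe the letters of the windows only.

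The deposited values are log2 expression after normalization and batch correction by the authors. They fall into 4 correction sets, recognised because cells of a set share exact values (at least 14.2% of them) and cells of different sets share 0%. Within a set, cells without reads of a gene share its lowest value, and a gene counted as detected where a cell's value differed from it. For Lck 2 sets have no such shared lowest value, and all their cells counted as detected. Where a level of at least 10 is named, the linear value exceeded that of no reads by 10 or more. The sets cut across the labels: 14 cells (5.36%) lay outside the main set or sets of their mouse, and mice 2A and 2B both lay mainly in sets 2 and 4, so these mice may not be independent. Results between cell groups are therefore also given by set, the 4 sets replacing the 4 mice. The sets are not independent replicates either. Set 2 held 35 cells of mouse 2A and 36 of 2B, and set 4 held 26 of 2A and 25 of 2B. A p-value by set therefore measures only the spread between these sets. A median of 7782 genes was detected per cell (5073 to 10337). Values cannot be set between genes, since the sources used here do not say whether they are per transcript length. Fewer transcripts in a cell and fewer reads from it cannot be told apart.

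The 6 genes formed a steep order of detection, from Lck in nearly every cell to Cd3e in few. Lck was detected in 98.1 ± 2.29% of the cells of a mouse (mean ± SD, n = 4 mice). Lat was detected in 87.9 ± 5.96% and Cd3d in 59.4 ± 5.67%. Skap1 followed with 39.8 ± 11.7% and Cd3g with 34.8 ± 7.78%. Cd3e was detected in 17 cells (6.66 ± 3.80% of a mouse). The order was the same in mice 1A, 1B and 2A, while in mouse 2B Cd3g stood above Skap1. Each of the other neighbours in the order differed the same way in 4 of 4 mice. An exact sign-flip test over 4 mice (two-sided) then gives p = 0.125, the smallest it can give. Skap1 and Cd3g differed by 4.99 ± 15.98 percentage points, higher for Skap1 in 3 of 4 mice (exact sign-flip p = 0.625). The genes were ranked by their means in these same mice, so the direction of each difference was set before the test. With 4 mice, p also cannot fall below 0.125. The sign-flip test therefore cannot decide whether the order holds, and the counts of mice only describe it.

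At a stricter threshold the order changed, since few of the cells with Cd3d detected reached it. The same linear threshold was used for all 6 genes. This second order thus also depends on the scale of each gene, which cannot be set between genes. At a level of at least 10 Lck was found in 91.5 ± 2.00% and Lat in 77.5 ± 4.93% of the cells of a mouse. Skap1 was found in 20.4 ± 7.15% and Cd3g in 18.8 ± 4.49%, whereas Cd3d fell to 8.40 ± 4.80% and Cd3e to 3.14 ± 1.93%. Cells that express other lineage markers gave a background for these shares. Dendritic-like cells, 32 cells with at least 0.5 of 9 dendritic markers such as Siglech and Irf8 at a level of at least 10, had Cd3d in 60.7 ± 15.2% and Lck in 98.3 ± 3.33% of cells (means of 4 mice). They had Lat in 60.95 ± 4.04%, Skap1 in 23.3 ± 22.1%, Cd3g in 11.7 ± 13.7% and Cd3e in 5.00 ± 10%. The share for Cd3d was thus about as large in cells with a dendritic marker profile as in all cells, and none of these 32 cells reached a Cd3d level of 10. Lck was less even than its detected share: it reached a level of 10 in 72.9 ± 9.48% of the dendritic-like cells. Its mean log2 value was 5.79 ± 0.72 in them, against 8.41 ± 0.22 in all cells (4 mouse means). The median number of detected genes was 6608 in the dendritic-like cells, against 7782 in all cells. The 11 basophil- or mast-like cells stood apart in another way: all 11 had Lat and Skap1, with a median log2 value of 7.93 for Lat and 8.97 for Skap1. Lat was even between mice (7.82 ± 0.41, mean and SD of 4 mouse means), while Skap1 was not (5.53 ± 3.43, from 0.80 in the 1 such cell of mouse 2B to 8.97 in mouse 1A). LAT is known as a signalling adaptor of mast cells as well as of T cells.

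**Figure D1:**
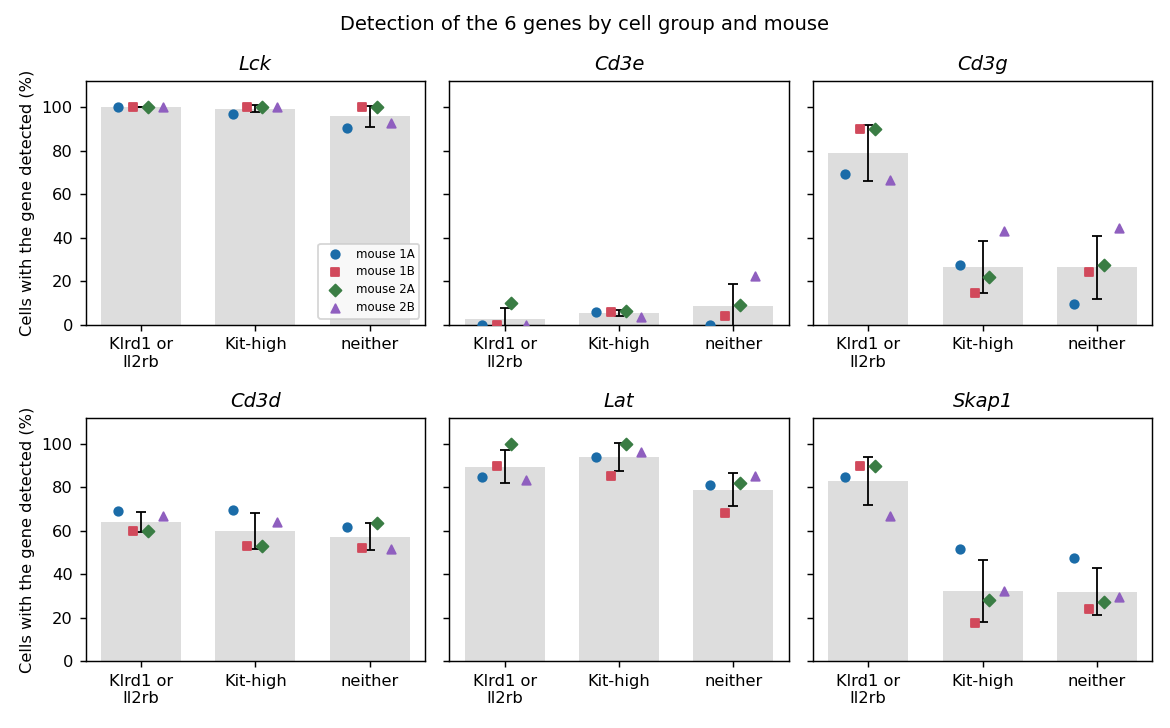
Share of cells with each of the 6 genes detected (%, vertical axis) in Klrd1- or Il2rb-expressing, Kit-high and remaining cells. Points are the 4 labelled mice, bars and whiskers their mean and SD. Cd3g and Skap1 stand at 78.97% and 82.8% in the Klrd1- or Il2rb-expressing cells and at 26.7% and 32.4% in the Kit-high cells, while Cd3d lies between 57.3% and 63.97% in all 3 groups.

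Most cells held a partial complement of the 6 genes. All 6 were detected in 3 cells, 5 of them in 33, 4 in 73, 3 in 84, 2 in 56 and 1 in 12 cells. Among the CD3 chains, Cd3d without the other chains was the commonest pattern (96 cells, 36.8%), followed by no chain (69 cells, 26.4%), Cd3g with Cd3d (47 cells, 18.0%) and Cd3g without the other chains (32 cells, 12.3%). All 3 chains were detected in 8 cells (3.07%). Cd3g and Cd3d, the close neighbours on the chromosome, occurred together in 55 cells, where their shares in each mouse multiplied give 53.4. Cd3g and Skap1 occurred together in 56 cells against 35.3, an excess present in 4 of 4 mice. Cd3e and Cd3g occurred together in 11 cells against 6.40, also above the product in 4 of 4 mice. These counts are not adjusted for the number of detected genes.

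To see where the genes lie between progenitor and innate lymphoid states, cells were grouped by markers outside the 6 genes. Klrd1 encodes CD94, a receptor chain of NK cells, and Il2rb the beta chain of the receptors for interleukin-2 and interleukin-15; 39 cells had either at a level of at least 10 (13, 10, 10 and 6 by mouse). Kit encodes the stem cell factor receptor of progenitors; cells without Klrd1 or Il2rb at that level and with Kit above the median of their mouse were called Kit-high (33, 34, 32 and 28 by mouse). The other 95 cells fell in neither group. Among the Klrd1- or Il2rb-expressing cells 24 of 39 (61.5%) carried at least 0.5 of 15 NK and ILC markers at a level of at least 10, against 0% of Kit-high cells. At least 0.5 of 8 progenitor markers were carried by 11 of the 39 cells (28.2%) and by 97.6% of the Kit-high cells. The first group was mixed: 23 cells had both Klrd1 and Il2rb, 10 had Klrd1 alone, of which 6 were dendritic-like, and 6 had Il2rb alone. The 23 cells with both genes all carried at least 0.5 of the NK and ILC markers, and 0 carried that share of the progenitor markers. The NK and ILC list contains Klrd1 and Il2rb, and the progenitor list contains Kit. The grouping itself therefore sets part of these shares, which describe the groups and do not test what they are.

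These cells also lay together by well. In plate order 7 of the first 8 wells of sets 1, 2 and 4 each held such a cell, against 2 of those of set 3: of these 32 cells over the 4 sets, 23 (71.9%) were Klrd1- or Il2rb-expressing, against 16 later cells (6.99%), and 22 of the 23 cells with both genes lay in those first wells. Mouse 2B had 0 cells in the first wells and 0 cells with both genes. The 6 Klrd1- or Il2rb-expressing cells of mouse 1A in the first wells lay in sets 1 and 4, while its 33 Kit-high cells lay in set 3. Some Klrd1- or Il2rb-expressing cells of mouse 1B lay in sets 2 and 3, while its 34 Kit-high cells lay in set 1. The differences within mice 1A and 1B below thus partly compare cells of different correction sets. The part of the well position in the results below was not tested separately from the cell type.

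Cd3g was high in the Klrd1- or Il2rb-expressing cells of 3 mice and low in those of mouse 2B. In mouse 1A its log2 values ran from 0.28 to 9.22 (median 4.17) in the Klrd1- or Il2rb-expressing cells, against 0.28 to 6.74 (median 0.28) in the Kit-high cells. In mouse 1B they ran from 0.14 to 14.7 (median 9.95), against 0.14 to 4.24 (median 0.14) in the Kit-high cells. In mouse 2A they ran from -0.19 to 9.77 (median 8.39), against -0.19 to 5.46 (median -0.06) in the Kit-high cells. The ranges overlapped in these 3 mice, but the medians were far apart. Among Klrd1- or Il2rb-expressing cells with Cd3g detected the lowest values were 1.41 in mouse 1A, 2.99 in 1B and 5.87 in 2A, so in 1A and 1B the detected values overlapped with those of Kit-high cells as well. In mouse 2B the values ran from -0.19 to 3.31 (median 0.93), against -0.19 to 8.49 (median -0.06) in the Kit-high cells. Here the highest values belonged to Kit-high cells. Cd3g was detected in 78.97 ± 12.8% of the Klrd1- or Il2rb-expressing cells and in 26.7 ± 11.95% of the Kit-high cells (SD, n = 4 mice), higher in 4 of 4 mice.

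Skap1 showed the same split with a smaller spread between mice. In mouse 1A its log2 values ran from -0.08 to 9.71 (median 4.55) in the Klrd1- or Il2rb-expressing cells, against -0.08 to 9.96 (median 0.71) in the Kit-high cells. In mouse 1B they ran from 0.15 to 9.57 (median 8.78), against 0.15 to 7.13 (median 0.15) in the Kit-high cells. In mouse 2A they ran from -0.03 to 9.89 (median 8.64), against -0.08 to 7.32 (median -0.02) in the Kit-high cells. In mouse 2B they ran from -0.02 to 6.42 (median 1.71), against -0.03 to 6.18 (median -0.02) in the Kit-high cells. The median was higher in the Klrd1- or Il2rb-expressing cells in all 4 mice, and the ranges overlapped in all 4. Skap1 was detected in 82.8 ± 11.1% of the Klrd1- or Il2rb-expressing cells and in 32.4 ± 14.2% of the Kit-high cells.

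**Figure D2:**
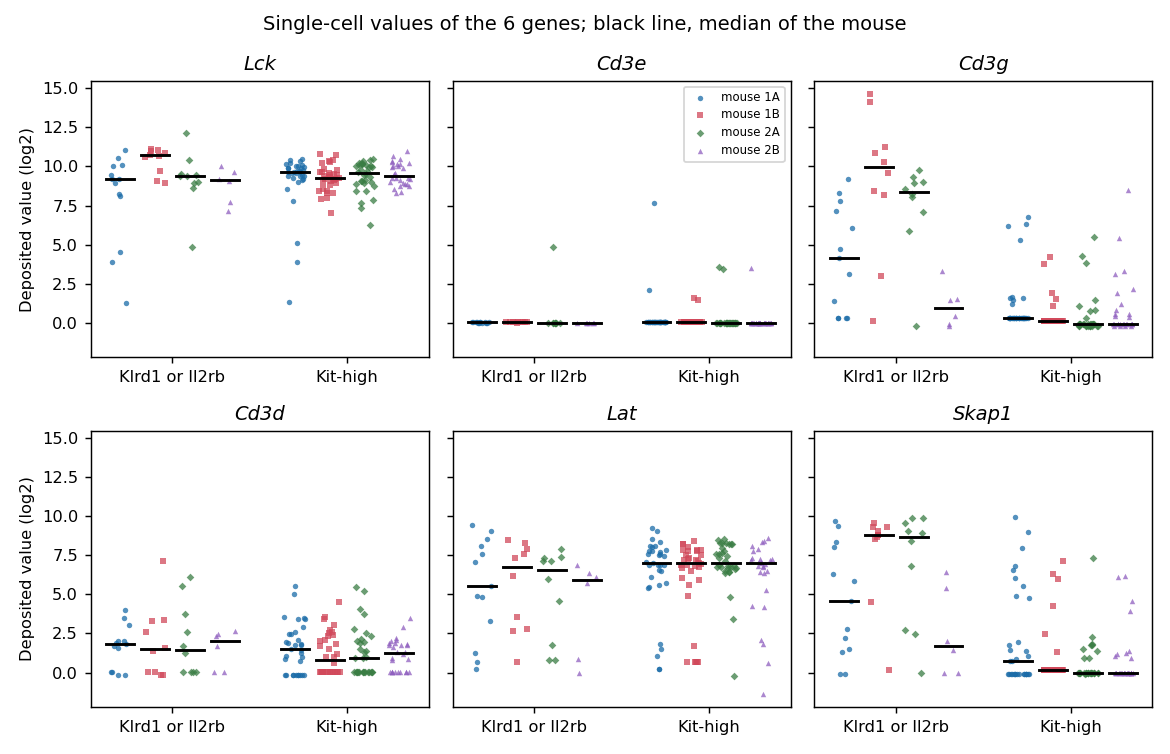
Deposited log2 values (vertical axis) of each gene in single cells, Klrd1- or Il2rb-expressing cells on the left and Kit-high cells on the right of each panel. Colours are the labelled mice and black lines their medians; for Cd3g the medians are 4.17, 9.95, 8.39 and 0.93 by mouse (1A first, 2B last) in the Klrd1- or Il2rb-expressing cells and at most 0.28 in the Kit-high cells.

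The levels of the 2 groups were compared with limma on the difference of mean log2 values within each mouse, adjusted by the Benjamini-Hochberg method over 12436 genes. In this comparison 0.893% of the genes tested passed an adjusted p of 0.05 as higher and 9.34% as lower in the Klrd1- or Il2rb-expressing cells. The median difference of all genes was -0.50, and the Klrd1- or Il2rb-expressing cells had fewer detected genes (median 6807, against 8018 in Kit-high cells). Of the 5 members tested 1 passed the threshold as higher and 0 as lower. Skap1 averaged 5.39 ± 2.30 in the Klrd1- or Il2rb-expressing cells and 1.15 ± 0.67 in the Kit-high cells. Its difference was 4.24 ± 2.58 (SD of 4 mice; SE 0.92), higher in 4 of 4 mice, with a limma adjusted p of 0.0415. This call was lost when mouse 1A, 1B or 2A was left out (limma adjusted p = 0.101, 0.127 and 0.137). It was also lost when the first 8 wells of each set were left out (difference 1.09, limma adjusted p = 0.418). That fit rests on 3 mice, since mouse 2A kept 1 Klrd1- or Il2rb-expressing cell and dropped out.

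Cd3g averaged 5.41 ± 3.56 in the Klrd1- or Il2rb-expressing cells and 0.77 ± 0.35 in the Kit-high cells. Its difference of 4.64 ± 3.85 (SE 1.34) was positive in 4 of 4 mice but ran from 0.11 in mouse 2B to 8.57 in mouse 1B, and did not pass the threshold (limma adjusted p = 0.0731). It passed without mouse 2B (difference 6.15, limma adjusted p = 0.0282), where 1.42% of all genes passed as higher and 11.8% as lower. By set, 1.79% of all genes passed as higher and 14.4% as lower, and both genes passed. Cd3g then differed by 7.03, 5.34, 3.51 and 4.35 in sets 1 to 4 (mean 5.06, limma adjusted p = 0.00951). Skap1 differed by 6.10, 4.60, 1.71 and 5.66 (mean 4.52, limma adjusted p = 0.0146). Without set 2 neither passed, at 4.96 for Cd3g (limma adjusted p = 0.0564) and 4.49 for Skap1 (limma adjusted p = 0.0672). Without the first 8 wells the difference of Cd3g by mouse was 0.69 (3 mice, without 2A, limma adjusted p = 0.585).

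Lck, the kinase, and Lat, its downstream adaptor, were common to both groups. Lck was detected in 100% of the Klrd1- or Il2rb-expressing cells and 99.2 ± 1.52% of the Kit-high cells, and its mean log2 value was 9.10 ± 0.98 in the Klrd1- or Il2rb-expressing cells and 9.29 ± 0.19 in the Kit-high cells. Its difference was -1.04, 1.14, -0.15 and -0.74 by mouse (mean -0.20 ± 0.96, limma adjusted p = 0.796). The sign differed between mice and between the ways of grouping. Lat averaged 5.09 ± 0.55 in the Klrd1- or Il2rb-expressing cells and 6.34 ± 0.41 in the Kit-high cells. It was lower in 4 of 4 mice (by mouse -0.89, -0.49, -1.84 and -1.76; mean -1.25 ± 0.66) without passing the threshold (limma adjusted p = 0.0730), and the median of all genes was also lower, at -0.50. Within the Klrd1- or Il2rb-expressing group Lat had a median log2 value of 7.12 in the 23 cells with both genes, 2.28 in the 10 with Klrd1 alone and 7.71 in the 6 with Il2rb alone. Of the 12 cells of the group below a level of 10 for Lat, 6 were among the 23 with both genes and 6 among the 10 with Klrd1 alone.

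Cd3d, the delta chain, was detected about as often in both groups, unlike Cd3g. It was detected in 63.97 ± 4.71% of the Klrd1- or Il2rb-expressing cells and 60.01 ± 8.36% of the Kit-high cells. Its mean log2 value was 1.80 ± 0.25 in the Klrd1- or Il2rb-expressing cells and 1.31 ± 0.20 in the Kit-high cells (difference 0.49 ± 0.34, positive in 4 of 4 mice, limma adjusted p = 0.307). The cells neither Kit-high nor Klrd1- or Il2rb-expressing had Cd3d in 57.3 ± 6.30%. All 3 groups thus lay close to the 60.7% of the dendritic-like cells, which are themselves part of these groups. Dendritic-like cells outside the Klrd1- or Il2rb-expressing group had it in 51.1 ± 13.8%.

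**Figure D3:**
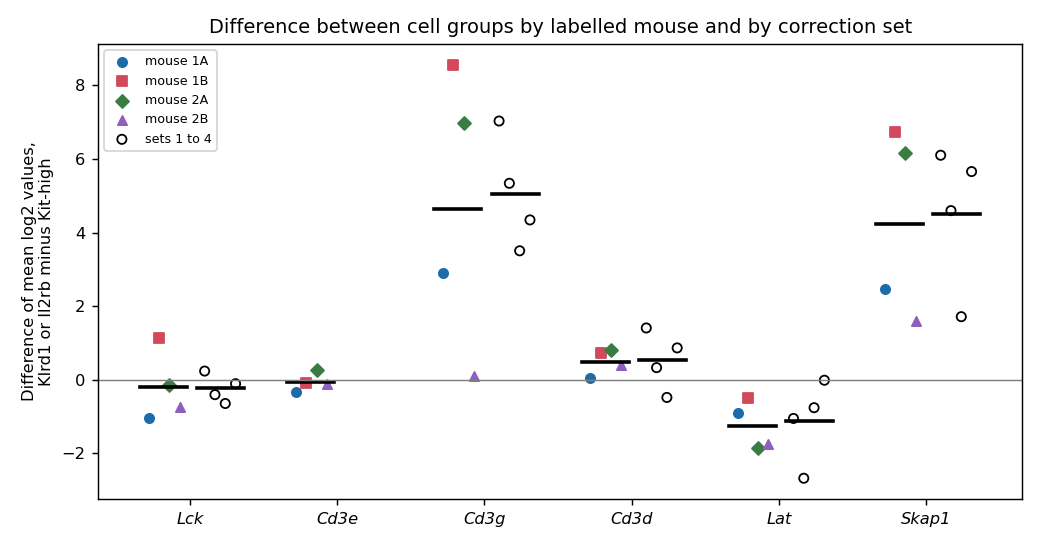
Difference of mean log2 values, Klrd1- or Il2rb-expressing minus Kit-high cells (vertical axis), for each gene. Coloured points are the 4 labelled mice, open circles the 4 correction sets and black lines their means; Cd3e was under the detection filter and is shown by mouse only. Skap1 is above 0 in every mouse and set, Cd3g spreads from 0.11 to 8.57 over the mice, and Lat is below 0 throughout.

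The 23 cells with both Klrd1 and Il2rb, a division made after the data were seen, held Cd3g and Skap1 without exception. Cd3g was detected in 23 of 23 (95% exact interval 85.2 to 100%), with log2 values of 3.11 to 14.7 and a median of 8.55. Skap1 was detected in 23 of 23, with values of 2.48 to 9.89 and a median of 8.78. Of these cells 12 had Cd3g with Cd3d and no Cd3e, 10 had Cd3g as their only CD3 chain and 1 had all 3 chains. By contrast Cd3g was detected in 4 of the 10 cells with Klrd1 alone and reached a level of 10 in 0 of them. It was detected in 4 of the 6 cells with Il2rb alone and reached that level in 2. Against the Kit-high cells of the same set, the cells with both genes were higher by 9.28, 7.64, 9.48 and 7.10 for Cd3g (mean 8.37, limma adjusted p = 0.00171) and by 8.20, 6.92, 4.61 and 7.23 for Skap1 (mean 6.74, limma adjusted p = 0.00408). In that comparison 2.65% of all genes passed as higher and 17.6% as lower. Set 3 held 3 of the 23 cells, and 2 cells of its first wells had the highest Cd3g values of the matrix, 14.7 and 14.1.

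**Figure D4:**
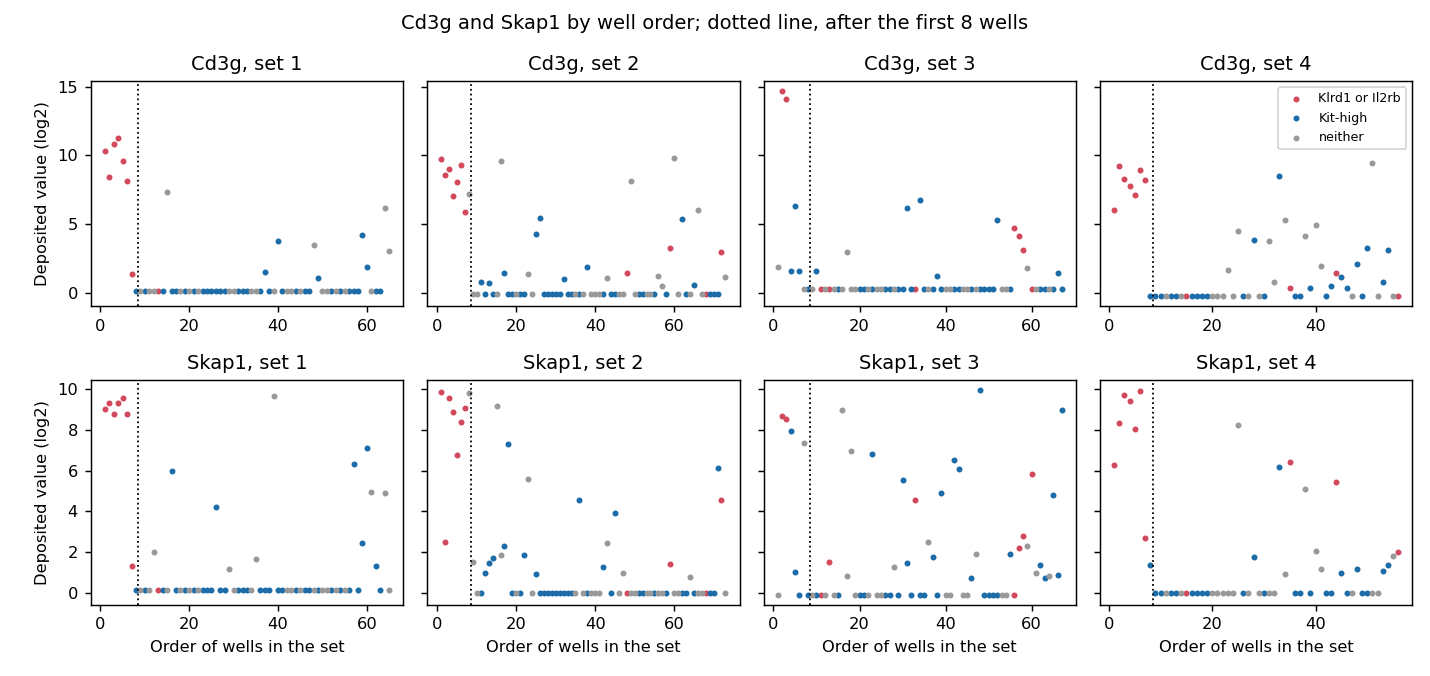
Deposited log2 values (vertical axis) of Cd3g and Skap1 against the order of wells in each correction set (horizontal axis). Red points are Klrd1- or Il2rb-expressing, blue Kit-high and grey the remaining cells; left of the dotted line, in the first 8 wells, Cd3g reached a level of 10 in 24 of 32 cells, against 25 cells (10.9%) to its right.

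Outside that run of wells Cd3g was less frequent but present. Among the later cells it was detected in 62 (27.1%, 95% exact interval 21.4 to 33.3%) and reached a level of 10 in 25. Among these later cells its share differed by sequencing pool, with 36 of 88 cells (40.9%) in the second pool and 26 cells (18.4%) in the first. In mouse 2A, the mouse with cells in both pools, 8 of 27 later cells of the second pool (29.6%) and 4 of 26 of the first (15.4%) had it. Skap1 was found there in 11 of 27 later cells of the second pool (40.7%) and 2 of 26 of the first (7.69%). These differences were not tested, and pool, correction set and plate cannot be told apart there.

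Cd3e, the epsilon chain on which assembly of the surface complex depends, was rare in every group. It was detected in 1 of 39 Klrd1- or Il2rb-expressing cells, 7 Kit-high cells (5.51%) and 9 of the 95 other cells, and in fewer than 10% of all cells, so it was left out of the test. It was in 0 of 13, 0 of 10 and 0 of 6 Klrd1- or Il2rb-expressing cells of mice 1A, 1B and 2B. The upper limits of the 95% exact intervals were 24.7, 30.8 and 45.9% (counting error only). The Kit-high cells had it in 2 of 33, 2 of 34, 2 of 32 and 1 of 28 cells by mouse. Mouse 2B had 6 of the 9 cells in neither group. Of the 17 cells 11 also had Cd3g, 12 had Cd3d and 7 had Skap1. A few cells, singled out after their values were seen, had the 3 chains together at high values. A cell of mouse 2A in neither group had log2 values of 6.95 for Cd3e, 9.59 for Cd3g and 4.33 for Cd3d. A cell of mouse 2B in neither group had 6.56, 9.46 and 5.53, and another of mouse 2B had 4.56, 9.81 and 6.73, for Cd3e, Cd3g and Cd3d in that order. Their Klrd1 values were at the level of no reads. Il2rb was detected at low values in the cell of mouse 2A (0.83) and in the second cell of mouse 2B (1.06). The Klrd1- or Il2rb-expressing cell with Cd3e, from mouse 2A, also had the 3 chains, at 4.82, 7.06 and 2.57 in the same order. Its values were 7.98 for Klrd1 and 7.25 for Il2rb. The highest Cd3e value, 7.66, belonged to a Kit-high cell of mouse 1A with an Il2ra value of 8.49, in which Cd3g was 1.23 and Cd3d 0.75.

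Within the Kit-high cells, Il2ra, which encodes CD25 and marks the step from ETP to the next T-cell stage, was used to ask whether the genes change along that step. Kit-high cells with Il2ra at a level of at least 10 numbered 14, 11, 20 and 14 by mouse, and those without it 19, 23, 12 and 14. None of the 12435 genes tested passed an adjusted p of 0.05 with limma (0% in either direction). Lat averaged 6.75, 6.56, 7.35 and 6.46 by mouse in the cells with Il2ra, against 5.999, 5.77, 6.20 and 5.69 in the cells without it. It was higher in 4 of 4 mice, by 0.87 ± 0.19 (limma adjusted p = 0.722, unadjusted p = 0.00869). By set the difference was 0.79, -0.27, 0.73 and 2.91, so its sign was not the same in all sets (limma adjusted p = 0.840). The mean differences of the others were 0.12 for Lck, 0.18 for Cd3g, -0.17 for Cd3d and -0.34 for Skap1, each smaller than its spread between mice, and Cd3e was under the filter. This comparison shares Kit-high cells with the one above. At an unadjusted p under 0.05 there were 753 genes.

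The other genes of the receptor pathway moved in both directions. Of 57 genes outside the members in 8 lists, 53 were tested; 3 (5.66%) passed as higher and 8 (15.1%) as lower in the Klrd1- or Il2rb-expressing cells against Kit-high cells, beside 0.893% and 9.34% of all genes. Their median difference was 0.33, against -0.50 for all genes. By set 11 (20.8%) passed as higher and 10 (18.9%) as lower, beside 1.79% and 14.4% of all genes. For cells with both Klrd1 and Il2rb, by set, these were 16 (30.2%) and 10 (18.9%), beside 2.65% and 17.6%. Trac, Sh2d1a and Cd8b1 were not analysed here.

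Of 7 receptor chain genes tested, 2 were lower. Trbc1 and Trbc2, the constant segments of the T-cell receptor beta chain, fell by 2.27 ± 1.36 and by 1.86 ± 0.75 on the log2 scale in the Klrd1- or Il2rb-expressing cells (limma adjusted p = 0.0485 and 0.0371), and 0 of the 7 passed as higher; by set 1 passed as higher, Tcrg-C4, and 3 as lower. Trbc1 and Trbc2 are near-identical and may share reads, so the split between them is uncertain. Tcrg-C4, a gamma-chain constant segment, was named after its value was seen. Of the CD3 complex, Cd247, the zeta chain, averaged 1.82 in the Klrd1- or Il2rb-expressing cells and 0.20 in the Kit-high cells (difference 1.63 ± 1.77, limma adjusted p = 0.149). It was positive in 4 of 4 mice, and in the cells with both Klrd1 and Il2rb, over sets, its difference was 2.72 (limma adjusted p = 0.0221).

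Of the 8 proximal kinases, Lck among them, 0 passed in either direction by mouse, and by set 2 passed as higher and 1 as lower. Txk and Zap70, named after their values were seen, had differences of 2.83 (limma adjusted p = 0.0504) and 2.46 (limma adjusted p = 0.0839). Txk encodes a Tec-family kinase. By set Txk passed, with a difference of 2.98 (limma adjusted p = 0.00925), and Zap70 did not (2.51, limma adjusted p = 0.0521).

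Among the adaptors Skap1 was the 1 gene of 18 tested that passed as higher, and Tespa1 and Nck1 passed as lower. Tespa1, needed for thymocyte receptor signalling, fell by 1.93 ± 0.54 (limma adjusted p = 0.0314) and Nck1, an SH2 and SH3 adaptor, fell by 1.54 ± 0.70 (limma adjusted p = 0.0483). Of 5 enzymes and scaffolds below Lat, 1 passed as higher and 1 as lower, with a median difference of 0.80 (2 higher and 1 lower by set). The gene that was lower, Plcg1, which encodes phospholipase C-gamma 1, averaged 2.70 in the Klrd1- or Il2rb-expressing cells and 7.12 in the Kit-high cells. It fell by 4.42 ± 1.52, in 4 of 4 mice (limma adjusted p = 0.0290).

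Ubash3a, a negative regulator of receptor signalling, fell by 2.89 ± 0.94 (limma adjusted p = 0.0290), the 1 gene of 7 phosphatases and ubiquitin ligases to pass. Among 7 coreceptors and costimulators Cd2, an adhesion receptor of T and NK cells, rose by 3.47 ± 2.02 (limma adjusted p = 0.0405), whereas Cd27 fell by 1.92 ± 0.88 and Cd5 fell by 1.70 ± 0.77 (limma adjusted p = 0.0400 and 0.0437). The innate receptor adaptors Tyrobp, Fcer1g and Hcst, through which NK receptors signal in place of CD3, had differences of 2.52 ± 1.08, 3.30 ± 2.35 and 1.96 ± 2.13. Tyrobp passed the threshold (limma adjusted p = 0.0319), and Fcer1g and Hcst did not (limma adjusted p = 0.0568 and 0.140); by set all 3 passed. Tyrobp was also high in cells of other types, with a median log2 value of 10.6 in dendritic-like and 10.7 in basophil- or mast-like cells, against 10.1 in the cells with both Klrd1 and Il2rb. Of the 39 Klrd1- or Il2rb-expressing cells 8 were dendritic-like, and without other cell types 0 genes passed with limma (2705 at an unadjusted p under 0.05). The part of the dendritic-like cells in the difference was not tested separately.

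**Figure D5:**
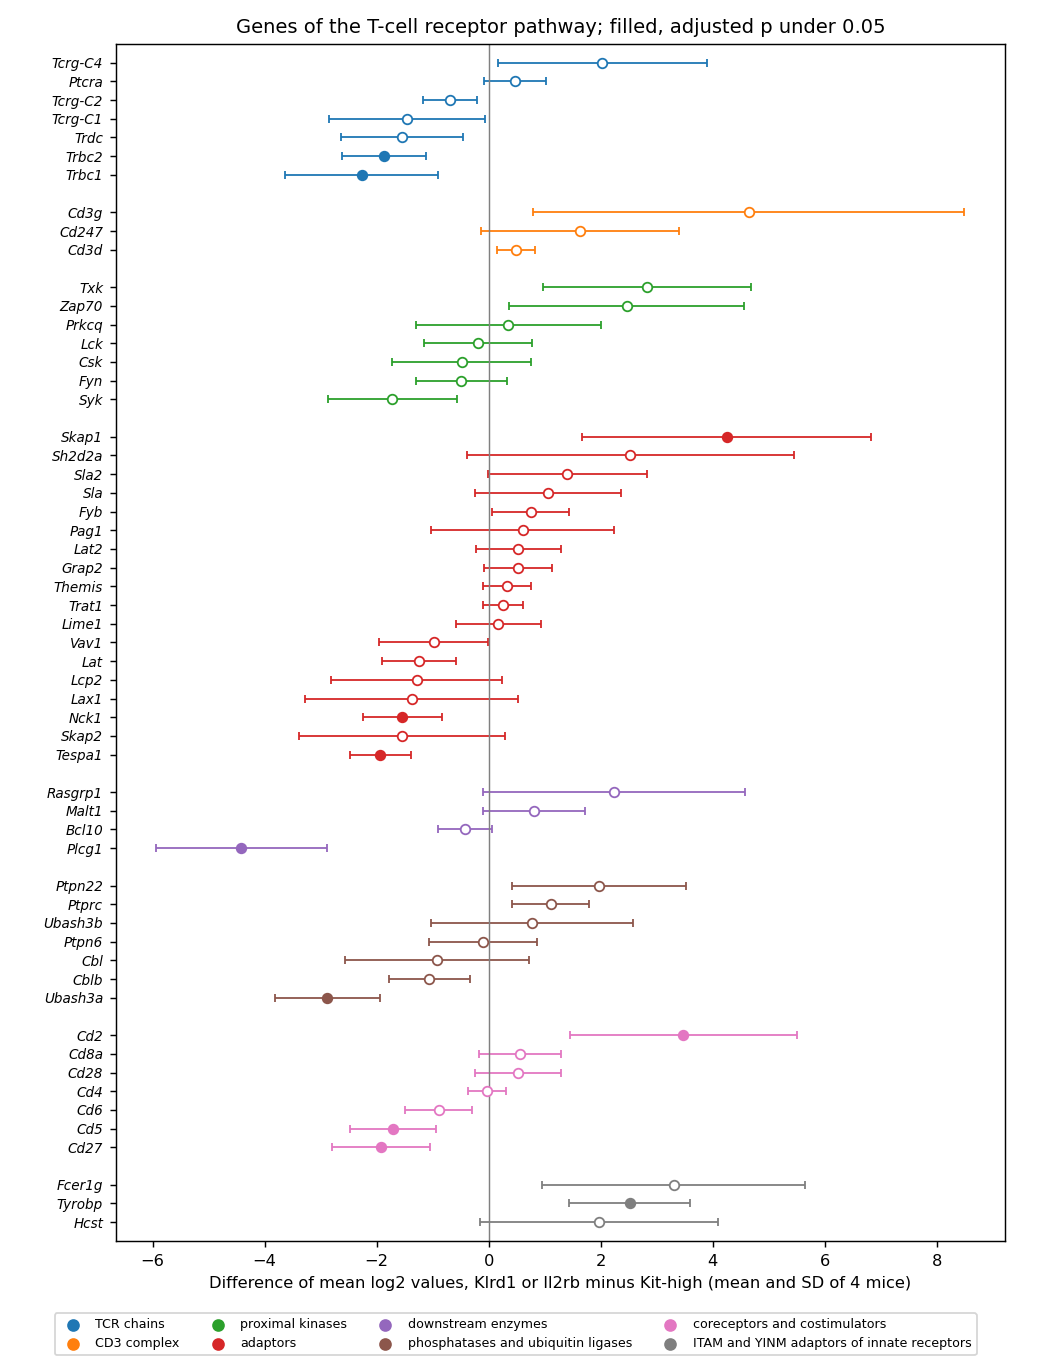
Mean difference of log2 values with its SD over 4 mice (horizontal axis), Klrd1- or Il2rb-expressing minus Kit-high cells, for genes tested in the 8 pathway lists, the members included. Filled points passed a limma adjusted p of 0.05; Plcg1 lies at -4.42 at the left end, and Cd2, Tyrobp and Skap1 are the filled points above 0.

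Each member also varied with other genes from cell to cell. Likeness was taken as the mean over 4 mice of the partial Spearman rho over the 61 to 69 cells of a mouse, with detected genes per cell and plate held constant. Cells of a mouse share libraries, plates and depth, so these values are descriptive. Cd3g was most like Klrk1 (rho 0.51), which encodes the NK receptor NKG2D, then Gzma (0.47, granzyme A), Tbx21 (0.45, the transcription factor T-bet), Xcl1 (0.38, a chemokine) and Gm44511 (0.38). Skap1 was most like Pglyrp1 (0.42), Klrk1 (0.42), Lgals1 (0.38), Fgl2 (0.38) and Cd3g (0.37). Klrk1 thus stood in the lists of both genes. For Cd3g the rho of Klrk1 ran from 0.05 to 0.67 over the mice. That of Tbx21 ran from 0.04 to 0.65 and that of Xcl1 from 0.003 to 0.59. The ranges were 0.36 to 0.59 for Gzma and 0.16 to 0.67 for Gm44511.

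Lck and Lat were most like other genes. Lck was most like Nrgn (0.48), the beta-chain joining and constant segments Trbj1-2 (0.44), Trbc1 (0.43) and Trbj1-1 (0.43), and Nkg7 (0.43). Lat was most like Ifitm2 (0.45), Nkg7 (0.39), Crip1 (0.38), Lck (0.38) and Gpx4 (0.35). For Cd3d no gene reached the limit of 0.3, and its highest rho was 0.23. For Cd3e, detected in 17 cells, Crls1 came first with 0.59, but within sets its rho was 0.24, and cells without reads differ in value between sets. Akr1c12, Gm10721, Jrkl and Ltf followed with 0.58, 0.57, 0.55 and 0.51, each detected in under 14% of cells; within sets the rho was 0.23 for Akr1c12 and 0.16 for Jrkl, and none was obtained for Gm10721 and Ltf. With Kit, Cd3g had a rho of -0.25, negative in 4 of 4 mice, and with the progenitor gene Cd34 of -0.26.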

How the data were processed

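Single cells of the embryonic day 15.5 thymus were sorted into plates, lysed, reverse transcribed with oligo-dT primers, preamplified and made into Nextera XT libraries, per the labels' protocols. The deposited log2 values were normalized and batch-corrected by the authors, as their range and the shared values within sets show. The submitters' processing notes name Salmon and GRCm38, with no version. How depth was normalized and which tool corrected batches was not stated. The matrix held 261 of 300 labelled cells; the others were not analysed here. Read depth is unknown, so detected genes stand for it.

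IDs were matched to GENCODE vM21. For each gene the mean of the Klrd1- or Il2rb-expressing cells minus that of the Kit-high cells was taken in each mouse, and a two-sided moderated test of the 4 differences against 0 was run (limma 3.58.1, R 4.3.3), for genes detected in at least 10% of cells, with Benjamini-Hochberg adjustment at 0.05. Kit, Klrd1 and Il2rb, and for the second comparison also Il2ra, were left out. Cells were not used as replicates. The mouse ids pair the 2 cell groups by origin, so the mouse was the block. limma draws each variance toward that of all genes, so p does not measure the spread of one gene alone. Where nothing says that the mouse ids are separate animals, p measures only the spread between these samples. Exact sign-flip tests and intervals used Python 3.11.15 with scipy 1.17.1; intervals are Clopper-Pearson and cover counting error only. The test was also run on Kit-high cells split at random within each mouse, with known shifts added to some genes. The shifts were equal in every mouse, so that run does not cover differences that vary between mice. Its outcome is not given here.

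The plan allowed for counts; the values were log2, so limma was used. Named pathway genes were at most 3 per list, those with the largest difference past the threshold, lists of up to 4 genes in full, and the 5 most like genes per member with a rho of at least 0.3. The members and lists were chosen with earlier results of these data known. A few pathway genes are counted in the lists but not reported here by name or drawn.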

Additional observations from a re-analysis of the deposited data

Results flagged for a closer look

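In 46 groups of 4 mouse values, 6 had 1 mouse far from the other 3, where chance gives about 1 in 20 for continuous values. That rate does not apply to the shares below, which a single cell can set when the other mice are tied, and all cells of set 1, most of mouse 1B, counted as having Lck. Lck was detected in 96.97% of the Kit-high cells of mouse 1A and in 100% of those of the others. Cd3e was detected in 10% of the Klrd1- or Il2rb-expressing cells of mouse 2A, 1 cell, and in 0% of those of the others, and this cell also set its mean log2 value of 0.47. Among Kit-high cells Cd3e was lowest in mouse 2B, at 3.57%. Between Kit-high cells with and without Il2ra, the Cd3g difference was highest in mouse 1A, at 0.72, and the Lat difference was highest in mouse 2A, at 1.16, with the other mice between 0.75 and 0.79.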

How the results depend on the processing

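The count of genes past the threshold between Klrd1- or Il2rb-expressing and Kit-high cells, 1272, depended on most choices. It was 0 to 1644 when 1 mouse was left out (0 without 1A, 1B or 2A, with 3117, 2819 and 2894 genes at an unadjusted p under 0.05). It was 2290 with no replicate block, where Lat passed with a difference of -1.25 (limma adjusted p = 0.0376). It was 529 with Klrd1 or Il2rb at any level, 655 with Kit at a level of at least 10, 828 with levels at no reads aligned and 745 with no filter. It was 0 without other cell types, with detected genes or with the correction set as a covariate, without the first 8 wells, and for shares detected, with 1672 to 3375 genes at an unadjusted p under 0.05 in each. The fit without the first 8 wells had 3 mice, without 2A. With sets in place of mice it was 2013, and 645, 0, 811 and 1354 without sets 1 to 4 (without set 2, 3251 at an unadjusted p under 0.05). For cells with both Klrd1 and Il2rb, chosen after seeing the data as were the fits without single sets, it was 1959 by mouse (3 mice) and 2520 by set. The plate as a covariate, a stricter cut on Kit and a 25% filter gave 1218, 899 and 1408. The Skap1 difference was positive under every alternative run and passed in 12 of 23 fits of its level, with adjusted p between 0.00408 and 0.418; it did not pass with any-level gating (1.49), without other cell types (5.22), with detected genes (4.05) or the set (3.70) as a covariate, with the stricter cut on Kit (4.18, adjusted p 0.0501) or with no filter, beside the cases the report gives. That of Cd3g was positive in all 23 and passed in 8 (adjusted p between 0.00171 and 0.585). Lck ran from -0.64 (without mouse 1B) to 0.084 (without mouse 1A) when 1 mouse was left out, and changed sign to 0.19 with Kit at a level of at least 10, 0.29 without other cell types, 0.41 and 0.24 for both genes by mouse and by set, 0.039 with detected genes as a covariate and 0.758 percentage points as a share. For Il2ra, 0 genes passed under all 13 alternatives (657 to 878 at an unadjusted p under 0.05), and with 1 mouse left out Cd3g ran from -0.00037 (without 1A) to 0.26 (without 2B) and Cd3d from -0.42 (without 2B) to 0.14 (without 1A), with Il2ra at any level Lck was -0.16, and as a share Cd3g was -2.76 percentage points. Where the cause of a change is not the number of samples or genes itself, it was not tested. Detection shares at a level of at least 10 were 91.5% for Lck, 77.5% for Lat, 8.40% for Cd3d, 20.4% for Skap1 and 18.8% for Cd3g. Cd3g was at 26.5% in the first pool, 45.8% in the second and 26.7% without the first wells.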
